A study of Homo sapiens with 4 samples.

Results

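The 40 genes described here encode the nuclear subunits of respiratory complexes II, III, IV and V (ATP synthase) and cytochrome c. They were taken by symbol from a given list by a rule that uses no measured value, although the list was drawn up with earlier results of these data known, and each symbol matched 1 Ensembl gene among the 58302 listed in every table: 4 genes of complex II, 9 of complex III, 1 for cytochrome c, 11 of complex IV and 15 of complex V. The study profiled polyA RNA of T24, a line grown from a human urothelial bladder carcinoma, in 2 libraries with the genotype control and 2 with the genotype IGF2BP3 knockout, the latter made with CRISPR/Cas9 as a stable line. The comparison addresses what changes in T24 transcripts when IGF2BP3, an RNA-binding protein that attaches to messenger RNAs, is lost. No source used here says whether the knockout is 1 clone, or whether the 2 libraries sharing a genotype were grown separately. The p-values therefore measure only the spread between these libraries, taken over genes of like level, and that spread may be technical.

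The respiratory chain sits in the inner mitochondrial membrane. Complex II (succinate dehydrogenase) feeds electrons from succinate to ubiquinone, complex III passes them to the mobile carrier cytochrome c, complex IV (cytochrome c oxidase) hands them to oxygen, and ATP synthase uses the resulting proton gradient to make ATP. Complexes III, IV and V also contain subunits encoded by the mitochondrial genome, whereas complex II is wholly nuclear. Many small supernumerary subunits surround the catalytic cores, and tumour cells are known to balance this pathway against glycolysis.

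Values are FPKM, that is, reads divided by transcript length and by library depth, so the length assigned to a gene bears on its level; levels of different genes are set side by side further on, per principal transcript. The worth of 1 read put the depth by which FPKM was divided at 2162179 and 1870884 reads in the controls. The knockouts had 811823 and 1240207, so both were shallower than both controls, and effects of depth and genotype cannot be told apart. Counting error alone therefore weighs heavily on low values, and by counting error a listed 0 allows up to 3 reads. Libraries of 1 genotype could differ by far more. ATP5PF and ATP5MF had 0 reads in control 1 against 75 and 104 in control 2. IGF2BP3 itself had an FPKM of 2.94 and 21.5 in control cells against 0 and 0.190 in knockout cells. Of 6 epithelial markers, KRT8 and KRT18 were at 173 to 1138 in every library, while KRT19, EPCAM and CDH1 were listed at 0 in all 4, and the epithelial list summed to 440 and 575 in control cells against 1499 and 1163 in knockout cells. KRT7, the remaining epithelial marker, had 0 and 4.27 in control cells against 56.9 and 33.1 in knockout cells. VIM, a mesenchymal marker which T24 carries, stood at 172 to 372. CDH2, listed with VIM, was uneven, at 0 and 11.5 in control cells against 19.9 and 1.49 in knockout cells. All 4 immune and both red cell markers were listed at 0 throughout, and the summed level of the fibroblast, endothelial and muscle lists was 0 to 14.9 in any library. The part of these markers in the results below was not tested.

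Short coding sequences and 3 promoter motifs were more frequent among the members than among all genes or windows, though most members lacked any given motif. The coding sequence had a median of 398 nt (range 153 to 1992) against 1425 nt over the 9620 protein-coding genes tested that have an annotated principal transcript, and 29 of the 40 (72.5%) were shorter than 600 nt, against 12.9%. RefSeq promoter windows (GRCh38.p14, 250 bases before to 50 after a start site) were found for 31 members, 36 windows in all, and were searched on both strands for motifs of regulators known to act on respiratory genes. The NRF1 motif gcgcatgcg was in 6 of these windows (16.7%) against 1.92% of all 35116 windows. The ETS motif ccggaag, of the family to which GABP belongs, was in 16 (44.4%) against 10.3%, and the YY1 motif aagatggcg in 4 (11.1%) against 1.75%. Windows of 1 gene can overlap, and a match is a description of letters only. SDHD and COX6A1 are shown because each carries the NRF1 and the ETS motif (capitals) and their values are given further on. In SDHD the NRF1 motif is read on both strands at overlapping positions that begin at −110 and −109 from the start site, and the ETS motif begins at −77. In COX6A1 they begin at −219 and −16. The windows are chr11:112086623-112086922 and chr12:120437863-120438162, both plus strand, 5′ to 3′.
SDHD: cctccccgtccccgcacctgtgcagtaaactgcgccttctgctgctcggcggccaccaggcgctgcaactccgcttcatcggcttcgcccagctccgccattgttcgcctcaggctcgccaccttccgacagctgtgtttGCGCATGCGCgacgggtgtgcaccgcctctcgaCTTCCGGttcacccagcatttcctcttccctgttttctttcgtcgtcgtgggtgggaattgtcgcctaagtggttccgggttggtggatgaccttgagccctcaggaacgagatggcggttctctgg
COX6A1: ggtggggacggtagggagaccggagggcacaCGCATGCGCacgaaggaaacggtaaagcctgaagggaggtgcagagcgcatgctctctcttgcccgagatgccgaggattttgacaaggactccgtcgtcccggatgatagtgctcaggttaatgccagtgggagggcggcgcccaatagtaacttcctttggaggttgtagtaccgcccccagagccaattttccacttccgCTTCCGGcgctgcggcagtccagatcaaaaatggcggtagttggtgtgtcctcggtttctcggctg

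None of the subunits passed the test between knockout and control. All 40 passed the filter (mean FPKM of at least 1), and 0 of 40 passed an adjusted p of 0.05 in limma, fitted over 11463 genes of which 0.0872% passed (adjusted p of the members 0.955 to 0.995). IGF2BP3 itself, with 27 and 171 reads in control cells against 0 and 1 in knockout cells, did not pass either. Its log2 fold change was −3.89 ± 2.83 (standard error, adjusted p = 0.955 in limma), so a gene not called here may still differ. At an unadjusted p of 0.05, 1 member (2.50%) was past the line, COX7A2, against 3.91% of all genes. COX7A2 was not past it with a replicate block (0.0512 in limma), without trend (0.254) or in limma-voom (0.448). Limma-voom on the recovered reads also passed 0 members, with 0 at an unadjusted p of 0.05, against 9 and 272 of 11043 genes. The members were evenly split: 20 were higher and 20 lower in the knockout. Their median log2 fold change was 0.03. A bound of 3 reads for SDHD and ATP5MF, each at 0 in a whole group, could not move it. The bound takes them outward on opposite sides, from 3.92 to 4.25 and from −3.59 to −4.14. The median over all genes tested was −0.08. In bulk RNA, fewer cells of a kind and less RNA per cell cannot be told apart. In limma with trend, standard errors of single members followed the mean level of a gene, not the spread of its own libraries. COX7C had 0.45 and COX5B 1.5, while their knockout libraries lay 2.33 and 7.85 apart. The standard errors ran from 0.45 to 2.83 on the log2(FPKM + 0.5) scale. Fold changes below are on that scale, which understates changes of low genes.

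**Figure D1:**
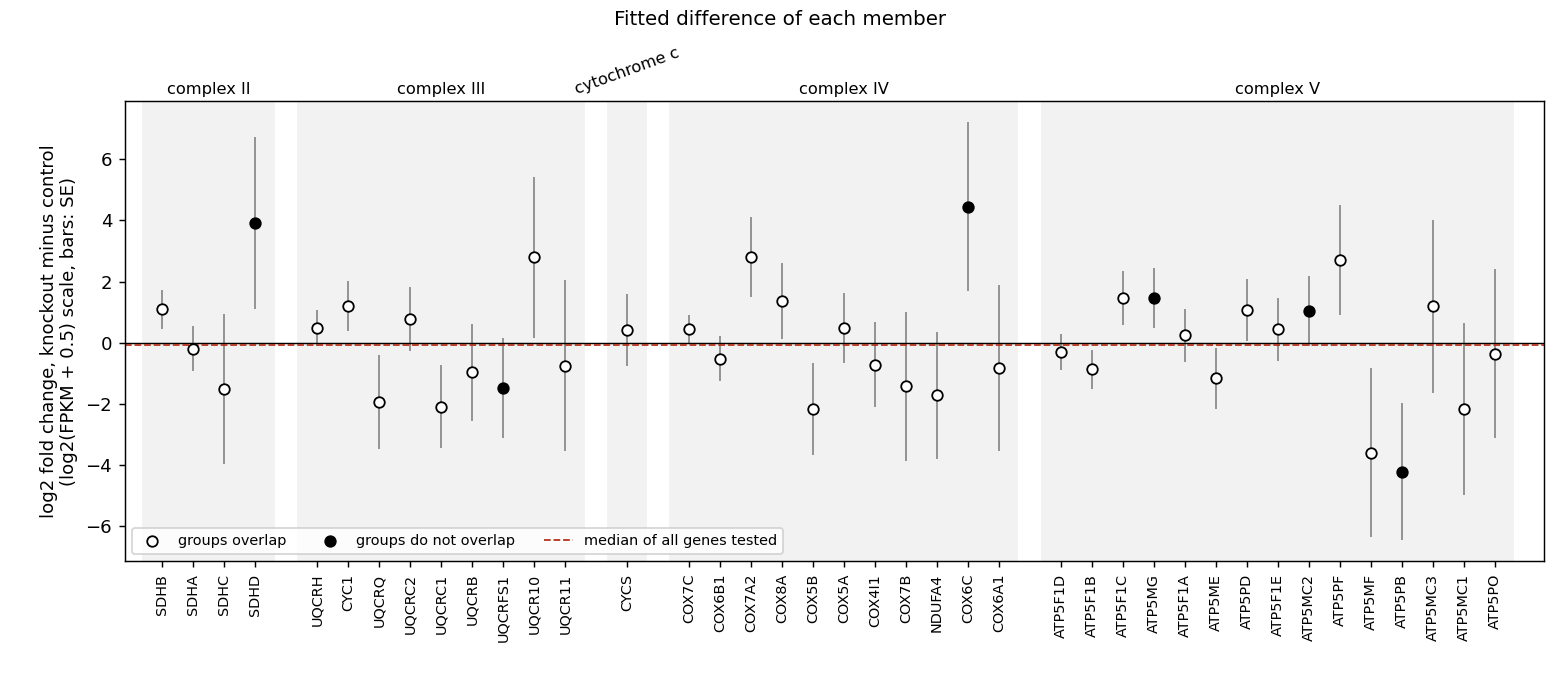
Fitted log2 fold change, knockout minus control, of each member (vertical axis, log2(FPKM + 0.5) scale) with its standard error (bars), grouped by complex and ordered by mean FPKM; filled points are members whose 2 control and 2 knockout values do not overlap. Points lie on both sides of 0 in complexes II to V, 20 higher and 20 lower in all, and the dashed line marks the median of all genes tested, −0.08. Bars follow the mean level of a gene, not the spread of its own libraries.

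Knockout and control values did not overlap for 6 members. SDHD, COX6C, ATP5MC2 and ATP5MG were higher in both knockouts (4 of 40, 10.0%, against 12.1% of all genes tested), and UQCRFS1 and ATP5PB were lower (2 of 40, 5.00%, against 14.4%). ATP5MG is named for this, after its values were seen. Both shares lay below those of all genes. Some of these values rest on few reads. COX6C had 1 and 0 reads in the controls and 34 and 7 in knockout cells, and SDHD had 0 and 0 against 4 and 25.

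Values of the members differed most between the 2 knockout libraries. The median absolute difference of log2(FPKM + 0.5) was 1.13 between the controls, 2.57 between the knockouts and 1.69 between a control and a knockout library (mean of 4 differences per member). Over all genes tested the same medians were 1.60, 1.89 and 2.08. The knockouts were farther apart than the controls for 27 of 40 members (67.5%) and for 54.1% of all genes. Both knockouts were also shallower than both controls, and the part of depth in this was not tested. For 4 members (10.0%) the fitted group difference was larger than the difference within either group, against 15.4% of all genes. Pearson's correlation of log2 values over the 40 members, which share libraries and depth, was 0.55 between the controls, 0.43 for the knockout pair and 0.47 to 0.61 for the 4 pairs of unlike genotype.

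**Figure D2:**
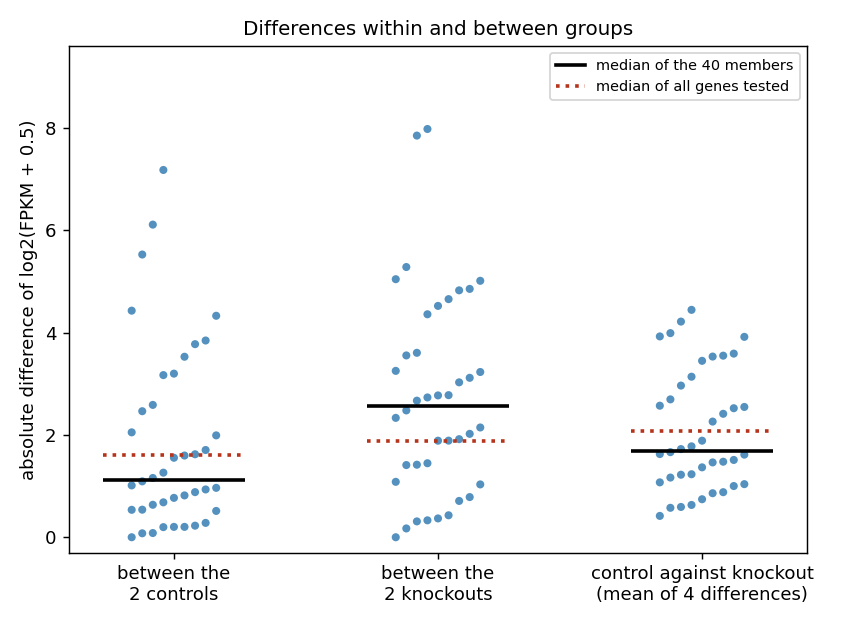
Absolute difference of log2(FPKM + 0.5) for each of the 40 members (points) between the 2 controls, between the 2 knockouts, and between control and knockout libraries (mean of 4 differences). Black bars are the members' medians (1.13, 2.57 and 1.69) and dotted bars those of all genes tested (1.60, 1.89 and 2.08): the members' knockout libraries are the farthest apart.

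Knockout 1 held both extremes. It had the lowest value, alone or tied, for 18 members and the highest for 15, while knockout 2 had the lowest for 4 and the highest for 12. Over the 11463 genes tested, knockout 1 had the lowest for 5846 and the highest for 2804, and knockout 2 for 2685 and 3036. Of the 40 members, 14 (35.0%) were listed at 0 in some library, against 49.4% of all genes tested. Listed zeros numbered 5 in control 1, 2 in control 2, 9 in knockout 1 and 1 in knockout 2. Knockout 1 also listed the most tested genes at 0, 34.7% of them against 12.3 to 28.3% elsewhere. These subunits are used by every respiring cell, so a listed 0 is given as such and not as absence.

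**Figure D3:**
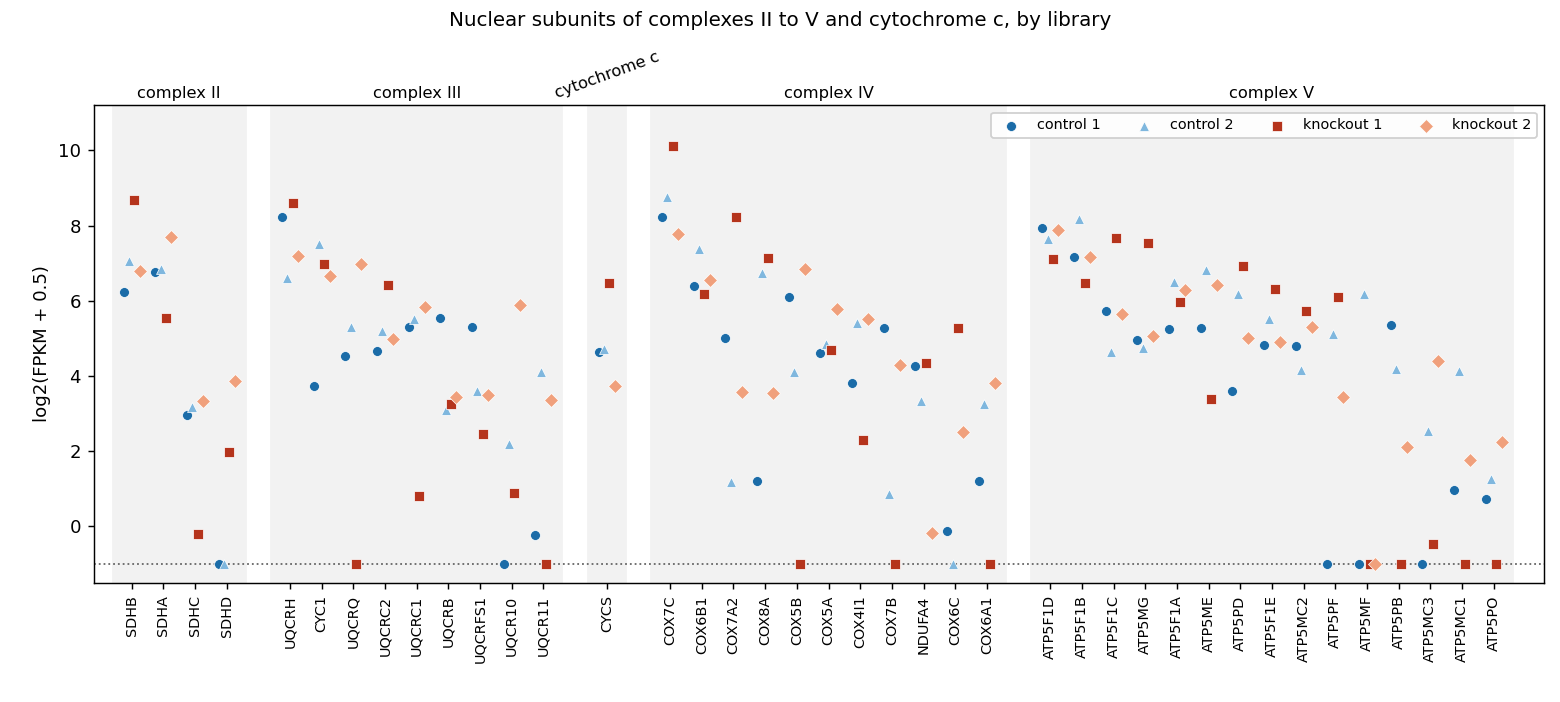
log2(FPKM + 0.5) of each member in the 4 libraries (vertical axis), grouped by complex and ordered by mean FPKM, with the dotted line at a listed 0. Knockout 1 (squares) holds 9 of the 17 zeros and also the topmost points, such as COX7C.

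Complex II showed no shared direction, as 2 genes were higher and 2 lower (median log2 fold change 0.45, or −0.19 with a filter at a mean FPKM of 5, which removes SDHD). SDHA, the flavoprotein that oxidises succinate, had an FPKM of 108 and 114 in control cells against 45.97 and 205 in knockout cells. SDHB, the iron-sulphur subunit that carries electrons onward, had 75.01 and 133 against 410.2 and 110.5. The knockouts of SDHA stood on opposite sides of the controls, and of SDHB only knockout 1 lay outside them. SDHC, a membrane anchor of the complex, had 7.30 and 8.47 against 0.363 and 9.63, and only knockout 1 was low, on 4 reads. SDHD, the other anchor, was listed at 0 in each control library, and its knockout values were 3.42 and 14.01. SDHD (ENSG00000204370, GENCODE 29 on hg38, plus strand of chromosome 11) was the lowest of the 40 once levels were set per principal transcript. Its fitted log2 fold change of 3.92 ± 2.81 (SE, n = 2 and 2) depends on the pseudocount and did not pass (adjusted p = 0.955 in limma). That of SDHB was 1.09 ± 0.64 (SE), and those of SDHA and SDHC were −0.19 and −1.5, each within its SE of 0.73 and 2.45. Both turned positive without knockout 1, to 0.88 and 0.28.

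Complex III had 4 genes higher and 5 lower. Its median log2 fold change of −0.75 turned to 0.43 without knockout 1. CYC1, cytochrome c1, which passes electrons to cytochrome c, had an FPKM of 12.9 and 182 in control cells against 125 and 101 in knockout cells. Control 1 alone was low, and the log2 fold change of 1.19 ± 0.82 (SE) became −0.70 without it. UQCRFS1, the Rieske iron-sulphur protein, had 38.7 and 11.5 against 4.96 and 10.7. Its groups did not overlap, but control 2 and knockout 2 differed by less than 1 FPKM, and the log2 fold change of −1.48 ± 1.64 (SE) did not pass (adjusted p = 0.955 in limma).

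Among the core and supernumerary subunits of complex III, UQCRC1 and UQCRQ had a single low library. UQCRC1, a core protein, had an FPKM of 39.1 and 44.97 in control cells against 1.24 and 56.9 in knockout cells, and UQCRQ, a small subunit, had 22.8 and 39.1 against 0 and 125. Knockout 1 was far below the other 3 libraries for both, with 2 and 0 reads, and without it their log2 fold changes of −2.09 and −1.94 turned to 0.43 and 2.05. UQCRH, the acidic hinge protein beside cytochrome c1, had the highest mean FPKM of the complex, though not in control 2, where CYC1 was higher. It was at 300.3 and 97.3 against 391 and 147. Its groups overlapped. UQCR10 had 0 and 4.08 against 1.34 and 58.98, and UQCR11 had 0.349 and 16.6 against 0 and 9.74. Of these small subunits, UQCR11 had 1 high and 1 low library in each group, and UQCR10 was high in knockout 2 alone, on 67 reads. The remaining genes, UQCRC2 (24.9 to 85.7) and UQCRB (7.96 to 46.1), also overlapped between groups.

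CYCS, cytochrome c, which also triggers caspase activation when released from mitochondria, had nearly the same FPKM in both controls, 24.5 and 25.96. The knockouts lay on either side of them, at 87.8 and 12.8. Its log2 fold change of 0.41 ± 1.17 (SE) became −0.95 without knockout 1 and 1.78 without knockout 2.

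Complex IV had 5 genes higher and 6 lower. Its median log2 fold change of −0.52 turned to 0.90 without knockout 1 and to 0.20 without control 2. COX7C, a small membrane subunit, was the most abundant of the 40 genes in every library except knockout 2, in which ATP5F1D was higher. COX7C was at 301 and 431 in control cells against 1102 and 218 in knockout cells. The knockouts bracketed the controls, and the log2 fold change of 0.45 ± 0.45 (SE) became −0.72 without knockout 1. COX7A2, the widely expressed isoform of subunit VIIa (ENSG00000112695, minus strand of chromosome 6 from 75237675 to 75250323), had 31.9 and 1.75 against 301 and 11.5. Its highest and lowest libraries differed 171-fold, in opposite groups, yet control 1 exceeded knockout 2. At 2.81 ± 1.31 (SE) on the log2 scale, its difference had the smallest unadjusted p of the members (0.0312 in limma), did not pass (adjusted p = 0.955) and was 0.49 without knockout 1.

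COX6C, a nuclear subunit of the oxidase's membrane part (ENSG00000164919, minus strand of chromosome 8), had the largest positive fitted difference of the 40. SDHD exceeded it at a pseudocount of 0.1, in limma-voom and after quantile scaling. UQCR10 also did after quantile scaling, and other members did without knockout 1 or control 2. The FPKM of COX6C was 0.421 and 0 in control cells against 38.1 and 5.14 in knockout cells, groups that did not overlap. The fitted log2 difference, 4.44 ± 2.76 (SE, n = 2 and 2), did not pass (adjusted p = 0.955 in limma) and lay between 3.06 and 5.83 with 1 library left out. COX5B, a zinc-binding subunit on the matrix side, was at 67.7 and 16.7 against 0 and 115. Here knockout 2 held the highest and knockout 1 the lowest value, and the log2 fold change of −2.17 ± 1.5 (SE) turned to 1.75 without knockout 1.

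Some supernumerary subunits of complex IV had libraries at or near 0. COX6A1 had an FPKM of 1.81 and 9.06 in control cells against 0 and 13.7 in knockout cells, and COX7B had 38.2 and 1.30 against 0 and 18.9. Both sets overlapped, with knockout 1 lowest. NDUFA4, long counted with complex I and now placed in complex IV, had 18.7 and 9.54 against 19.7 and 0.379, and only knockout 2 was low, on 1 read. COX8A ranged from 1.82 in control 1 to 141 in knockout 1, a 77.2-fold difference, and COX4I1, the ubiquitous isoform of subunit IV, from 4.37 to 45.2. The steadiest genes of the complex were COX6B1, on the intermembrane face, at 83.9 and 164 against 72.02 and 93.1, and COX5A at 24.1 to 54.1, with a range of 2.28-fold and 2.25-fold over the 4 libraries.

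Complex V had 8 genes higher and 7 lower. Its median log2 fold change was 0.25, or −0.38 without control 1 and −0.69 without knockout 2. The 5 genes of the F1 head, where ATP is made, had the smallest median difference between a control and a knockout library of any group of members described here, but their controls lay farther apart than those of complex II. None of them was listed at 0, and their summed FPKM was 505 and 651 in control cells against 566 and 536 in knockout cells. ATP5F1D, the delta subunit of the rotor, had 244 and 200.7 against 137 and 236, and its 1.79-fold range was the narrowest of all 40 genes. ATP5F1B, the catalytic beta subunit, had 144 and 290.4 against 87.7 and 144, and its log2 fold change was −0.86 ± 0.64 (SE). ATP5F1A, the alpha subunit, ranged from 37.4 to 90.3, ATP5F1C, the gamma shaft, from 24.4 to 201, and ATP5F1E, the epsilon subunit, from 27.9 to 78.98.

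The stalk and membrane genes of complex V were less even. Among these 10, 6 were listed at 0 in some library, and the median difference between a control and a knockout library was 2.15, against 0.74 for the F1 head. ATP5PB, subunit b of the peripheral stalk (ENSG00000116459, plus strand of chromosome 1), had an FPKM of 40.3 and 17.8 in control cells against 0 and 3.83 in knockout cells. Both knockouts were below both controls, on 275 and 105 reads against 0 and 15. The log2 fold change of −4.21 ± 2.24 (SE) was the most negative of the 40, a rank that ATP5MF took with principal transcript lengths or without control 1, NDUFA4 without knockout 1 and COX5B without knockout 2. The ATP5PB value lay between −5.77 and −2.66 with 1 library left out and did not pass (adjusted p = 0.955 in limma). ATP5PF, coupling factor 6 of the same stalk, had 0 and 34 against 67.9 and 10.3, and its fold change of 2.71 turned to −0.35 without control 1. ATP5PO, the OSCP subunit that joins the stalk to F1, was low everywhere at 1.14 and 1.88 against 0 and 4.26, and ATP5PD ranged from 11.6 to 121.

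Of the small membrane subunits, ATP5MF was listed at 0 in every library but control 2, where it had an FPKM of 71.8 on 104 reads. ATP5MG, subunit g, had 30.4 and 26.4 in control cells against 187 and 33.1 in knockout cells. The fitted log2 difference was 1.46 ± 0.97 (SE). Its groups did not overlap, although knockout 2 stood less than 3 FPKM above control 1. ATP5ME, subunit e, ranged from 9.93 to 113, lowest in knockout 1.

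Subunit c, which forms the rotating ring of the membrane part, comes from ATP5MC1, ATP5MC2 and ATP5MC3. Their coding sequences (principal transcripts, GENCODE 29) have 408, 423 and 426 nt, and the last 77 codons encode the same residues in all 3, preceded by 59, 64 and 65 codons that hold the mitochondrial targeting leader. These 231 nt are shown because only synonymous letters tell the genes apart there. Capitals mark the 57 positions at which the 3 are not all the same. ATP5MC1 and ATP5MC2 differ at 27 positions, and each differs from ATP5MC3 at 46. The longest stretch shared by any pair is 17 nt.
ATP5MC1: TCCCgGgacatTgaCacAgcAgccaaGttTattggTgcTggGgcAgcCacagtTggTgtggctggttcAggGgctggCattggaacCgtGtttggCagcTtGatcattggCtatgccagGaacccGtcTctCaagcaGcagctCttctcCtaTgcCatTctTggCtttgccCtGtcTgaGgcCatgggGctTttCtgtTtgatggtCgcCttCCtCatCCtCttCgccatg
ATP5MC2: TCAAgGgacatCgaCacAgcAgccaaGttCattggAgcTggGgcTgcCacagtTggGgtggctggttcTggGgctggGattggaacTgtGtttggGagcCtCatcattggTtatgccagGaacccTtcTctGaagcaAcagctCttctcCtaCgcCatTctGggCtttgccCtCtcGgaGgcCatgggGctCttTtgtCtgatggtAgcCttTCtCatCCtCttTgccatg
ATP5MC3: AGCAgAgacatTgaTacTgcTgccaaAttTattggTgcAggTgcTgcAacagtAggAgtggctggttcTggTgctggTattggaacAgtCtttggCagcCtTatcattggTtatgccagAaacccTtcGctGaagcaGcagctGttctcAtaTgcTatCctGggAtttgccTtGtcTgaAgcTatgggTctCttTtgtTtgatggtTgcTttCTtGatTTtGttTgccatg

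The 3 genes contributed unequally from library to library. ATP5MC2 had an FPKM of 27.2 and 17.3 in control cells against 52.4 and 38.8 in knockout cells, and was the only one of them above 0 in all 4 libraries with groups that did not overlap. Its log2 fold change was 1.04 ± 1.14 (SE). ATP5MC1 had 1.46 and 17.1 against 0 and 2.91, and ATP5MC3 had 0 and 5.26 against 0.225 and 20.4. Neither separated the groups. Set per length of the principal transcript, ATP5MC2 made up 93.0% and 98.9% of the summed level of the 3 in control 1 and knockout 1, and 31.5% and 40.4% in control 2 and knockout 2. The sum was 77.4 and 146 in control cells against 140.4 and 255 in knockout cells, and overlapped between groups. The plain FPKM sum was 28.6 and 39.7 against 52.6 and 62.1, higher in both knockouts, so the separation depends on the length used. Both rest on 85 to 242 reads.

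**Figure D4:**
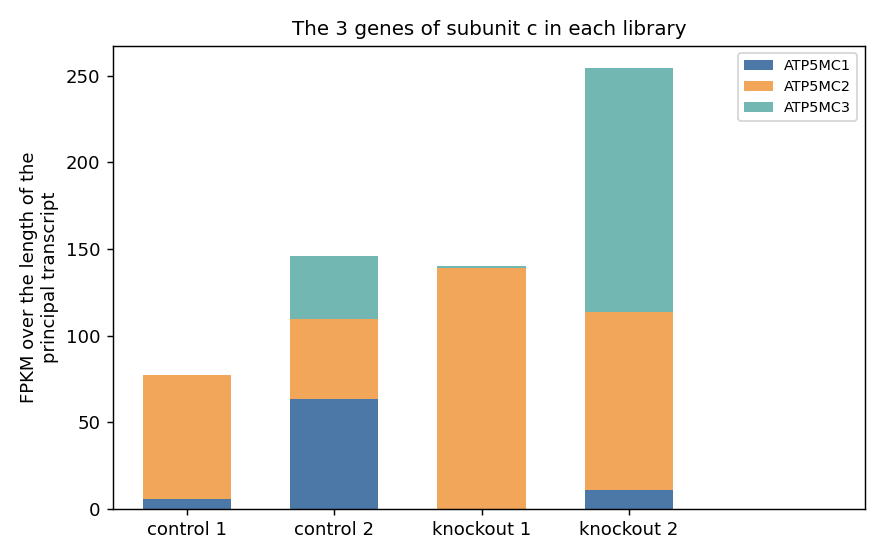
Level of ATP5MC1, ATP5MC2 and ATP5MC3 in each library (FPKM set per length of the principal transcript, stacked). ATP5MC2 makes up nearly all of the bar in control 1 and knockout 1, and 31.5% and 40.4% of it in control 2 and knockout 2.

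Summed over the 40 genes, FPKM came to 1939 and 2559 in control cells against 3873 and 2254 in knockout cells, or 0.543% and 0.701% against 1.07% and 0.630% of all FPKM of the library. Knockout 1 was the highest and knockout 2 lay between the controls. COX7C accounted for much of that height: without it the sums were 1638 and 2128 against 2771 and 2036. By complex, the sum of complex II was 190.3 and 255 against 460.0 and 339, higher in both knockouts, mostly through SDHB in knockout 1 and SDHA in knockout 2. The sum of complex III was 485 and 440.2 against 618 and 551, also higher in both knockouts, but without UQCRH it was 185 and 343 against 227 and 404 and overlapped. The sums of complex IV (583 and 810.0 against 1703 and 586) and complex V (656 and 1028 against 1004 and 765) overlapped. With 2 libraries a group these sums were not tested.

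**Figure D5:**
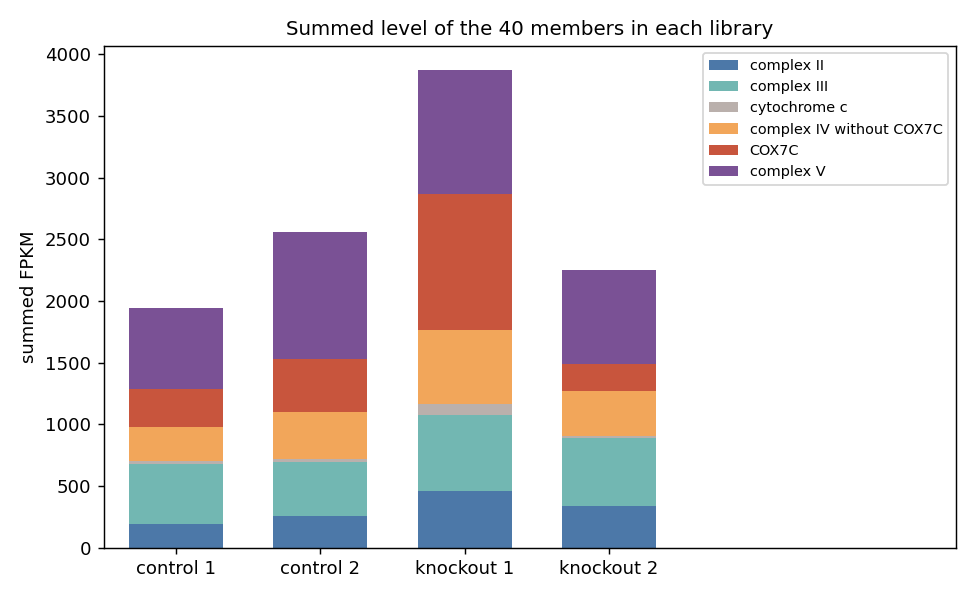
Summed FPKM of the 40 members in each library, stacked by complex with COX7C apart. Knockout 1 reaches 3873, of which COX7C gives 1102, while knockout 2 (2254) lies between the controls (1939 and 2559).

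Whole reads were recovered with the length of the longest annotated transcript of a gene. That length understates genes whose usual transcript is short. The principal transcript was shorter for 28 of the 40 members. Set per principal transcript, the mean level over the libraries was highest for COX7C at 1220.2, followed by ATP5F1D at 509, UQCRH at 266, ATP5F1E at 238 and ATP5PD at 215. At the low end stood COX6A1 at 8.22, SDHC at 6.44, ATP5PO at 5.55 and SDHD at 4.36. The principal transcript of SDHC is no shorter, at 13566 nt for a coding sequence of 507 nt, so its low rank depends on that length. SDHC had 214 and 215 reads in control cells against 4 and 162 in knockout cells. UQCRB likewise stayed at 5575 nt for 333 nt of coding sequence. Copies of members (genes annotated as pseudogenes of any kind, and UQCRHL) can share reads with them. Of 176 copies found by name, for 32 members, 8 were above 0, with 341 reads in all 4 libraries together against 26387 for the members. SDHAP1 had most of these, at an FPKM of 29.1 and 7.72 in control cells against 5.44 and 22.7 in knockout cells. UQCRHL, a near copy of UQCRH, had 1.27 to 6.62, ATP5PDP4 only 5.63 in control 2, and ATP5MFP2 only 15.6 in knockout 2. Sharing of reads was not tested.

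Genes around the same complexes gave no call either. Of 71 genes in 8 lists (other subunits and isoforms, assembly factors, mitochondrially encoded subunits and regulators of transcription), 50 were tested, 28 higher and 22 lower, and 0 passed in limma, with 3 at an unadjusted p of 0.05. Over all genes tested, 48.2% were higher and 3.91% were past that p. Among other nuclear subunits and isoforms, 4 of 6 were higher. ATP5MK, a small ATP synthase subunit, had an FPKM of 0 and 35.9 in control cells against 42.2 and 58.3 in knockout cells, and COX7A2L, a COX7A2 relative found in supercomplexes, had 0 and 9.09 against 40.3 and 2.64. DMAC2L was above 0 in control 1 alone, at 4.35. For complex II assembly, SDHAF1 and SDHAF3 were listed at 0 in both knockouts and reached 5.26 and 6.75 in control 2.

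Complex III assembly factors had 4 of 6 higher. BCS1L, which inserts the Rieske protein, had an FPKM of 1.15 and 37.1 in control cells against 54.4 and 60.0 in knockout cells, UQCC2 had 0 and 14.3 against 27.9 and 22.9, and TTC19 had 0 and 26.1 against 87.7 and 15.5. In all 3, control 1 was the lowest library. Of 18 complex IV assembly factors, 10 were higher and 8 lower. COA3, which stabilises newly made COX1, had 2.02 and 27.6 against 0 in both knockouts, SCO1, a copper chaperone, had 2.41 and 0.890 against 12.7 and 6.71, and HIGD2A had 136 and 5.60 against 0 and 49.5. For ATP synthase assembly all 3 tested were higher, each listed at 0 in 2 of the 4 libraries or more: ATPAF2 reached 20.9 in knockout 2, TMEM242 35.6 and ATPAF1 4.44 in knockout 1. HCCS, which attaches haem to cytochrome c, fell below the filter.

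The 6 mitochondrially encoded partners were above 0 in every library, 4 of them higher and 2 lower. MT-CO1, the catalytic core of complex IV, had an FPKM of 1090 and 948 in control cells against 2320 and 896 in knockout cells, with knockout 1 highest as for COX7C, and MT-CO3 had 615 and 641 against 1021 and 723. MT-ATP8, a short transcript that overlaps MT-ATP6, had 6.70 and 176 against 333 and 85.7, and its log2 fold change of 2.25 ± 0.81 (SE) did not pass (adjusted p = 0.787 in limma). Among 9 regulators tested, 3 were higher and 6 lower. GABPB1, the beta subunit of the ETS factor GABP, had 0.221 and 3.41 against 45.8 and 19.3, its DNA-binding partner GABPA had 15.0 and 21.7 against 13.2 and 1.42, and PPARGC1B had 0.832 and 7.33 against 9.67 and 4.96.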

How the data were processed

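PolyA RNA of T24 cells was sequenced in 4 libraries, 2 control and 2 knockout, after TruSeq preparation, per the labels' protocols. The authors deposited FPKM per Ensembl gene, counted with HTSeq per the file names, with the build hg38, per the submitters' processing notes. Not given in the sources used here are aligner, annotation release and strand setting. Names, lengths and positions came from GENCODE 29 (58039 of 58302 genes matched). FPKM times the longest transcript's length gave whole reads (tolerance 0.0001) for 96.4 to 96.5% of genes above 0.

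Genes averaging at least 1 FPKM were tested with limma 3.58.1 in R 4.3.3 (eBayes with trend) on log2(FPKM + 0.5), knockout minus control, two-sided, Benjamini-Hochberg adjusted over all of them at 0.05. Members, lists and tests were chosen with earlier results of these data known. The rule for named members took, in complexes II to V, the 4 largest fold changes and the 2 highest levels, with CYCS, the 3 subunit c genes and every member listed at 0. From each list it took up to 3 of the largest fold changes, and of the copies those averaging at least 1 FPKM. Alternatives were other pseudocounts, filters, scalings and moderation, leaving out single libraries, the replicate number as a block and, added after seeing the data, limma-voom and principal transcript lengths. Figures were drawn with Python 3.11.15 and matplotlib 3.10.9.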

Additional observations from a re-analysis of the deposited data

How the results depend on the processing

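No member passed in any of the 16 alternatives. The count of 10 genes over all genes tested was 7 to 14 in 10 of them, 14 with the replicate number as a block (0 members), 18 at an adjusted p of 0.1, 0 in limma without trend (415 at an unadjusted p of 0.05, 3 of them members) and 0 with any 1 library left out (752 to 1025, 1 to 7 of them members). The last takes the spread of a lone library from the 2 of the other genotype. The labels pair no libraries, and the block moved no count by over 1.5 times. Gene by gene, deviations of same-numbered libraries were uncorrelated (−0.0040 over the genes tested), a measure that cannot show a shift shared by all genes. Both libraries numbered 1 listed more tested genes at 0 (28.3% and 34.7%) than both numbered 2 (12.3% and 13.9%). The members' median log2 fold change was −0.03 to 0.08 with all 4 libraries and −0.37 to 0.39 with 1 left out, where the median of all genes tested moved between −0.56 and 0.34. Limma-voom and principal transcript lengths were chosen after seeing the data. Of 29 named members, SDHA alone turned with all 4 libraries (0.063 in limma-voom).

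With 1 library left out, 18 of the 29 turned or came to 0: 13 without knockout 1, 4 without control 1, 4 without control 2 and 2 without knockout 2. Their log2 fold changes then ranged from −1.26 to 0.88 (SDHA), −3.28 to 0.28 (SDHC), −4.61 to 0.43 (UQCRC1), −5.92 to 2.05 (UQCRQ), −0.33 to 1.30 (UQCRH), −2.93 to 1.43 (UQCR11), −0.70 to 3.08 (CYC1), −0.95 to 1.78 (CYCS), −6.10 to 1.75 (COX5B), −3.23 to 1.59 (COX6A1), −4.06 to 1.22 (COX7B), −0.72 to 1.61 (COX7C), −3.98 to 0.54 (NDUFA4), −0.69 to 0.091 (ATP5F1D), −0.35 to 5.76 (ATP5PF), −1.98 to 1.27 (ATP5PO), −1.23 to 3.63 (ATP5MC3) and −7.18 to 0 (ATP5MF). The cause was not tested.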
